A study of Mus musculus with 2 samples.

Results

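Chemokines are small secreted or membrane-bound proteins that guide leukocytes, and chemokine receptors are the G protein-coupled receptors through which leukocytes read them. In the parotid gland, a serous salivary gland, the 55 annotated genes of these families were followed by cell class, as sources and as receivers of the signal, in a control and in an irradiated library. The genes were taken by symbol alone, from every annotated feature whose symbol begins with Ccl, Cxcl, Ccr or Cxcr followed by a number, plus Cx3cl1, Cx3cr1 and Xcr1. They made up 55 of 48825 features, of which 37 encode ligands and 18 encode receptors. Over the kept cells of both libraries, 45 of them had at least 20 UMIs (unique molecular identifiers, each standing for 1 captured transcript), 5 had between 1 and 19, and 5 had none.

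Chemokines fall into families by the spacing of their first cysteines, and members of a family often share a receptor. As background, the CXC ligands Cxcl1, Cxcl2, Cxcl3 and Cxcl5 act on the neutrophil receptor Cxcr2, the interferon-inducible Cxcl9, Cxcl10 and Cxcl11 act on Cxcr3 of activated T cells, and Cxcl12, Cxcl13 and Cxcl16 act on Cxcr4, Cxcr5 and Cxcr6. Of the CC ligands, Ccl2, Ccl7 and Ccl12 act on the monocyte receptor Ccr2, Ccl3 and Ccl5 on Ccr1, Ccl17 and Ccl22 on Ccr4, and Ccl19 and Ccl21 on Ccr7, the receptor that leads T cells and dendritic cells into lymphoid tissue. In mucosal glands, Ccl28 is known as an epithelial product that attracts antibody-secreting cells through Ccr10.

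The study dissociated parotid glands of wild-type (WT) female C3H mice and measured RNA in single cells with the 10x Chromium method. The IR group received 6 Gy per day to the head and neck on 5 days, 30 Gy in total, and its glands were taken 10 months later, when the mice were 1 year old. The control group was of the same strain, genotype, sex and age and was not irradiated. Each group is 1 library that pools the glands of 2 mice, so the comparison of IR with control has no replicate check, no p-value is given, and irradiation cannot be told apart from any other difference between the libraries.

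After the study's filters, 3378 control cells and 5286 IR cells were kept, with medians of 2907.5 and 2461.5 UMIs per cell, and 3 barcodes occurred among the kept cells of both libraries. The members held 27579 control UMIs, or 0.145% of all UMIs of kept cells, and 39838 IR UMIs, or 0.196%. At least 1 member UMI was found in 75.5% of control cells and 79.5% of IR cells. A set of 16 abundant secretory genes took 38.8% of control UMIs and 27.4% of IR UMIs, so levels were compared within cell classes. The cells were grouped into 23 named classes by clustering in which no member took part, and each was named from at least 3 marker genes that are no members. A further cluster of 78 control and 207 IR cells was left unnamed and enters no class level below. The classes that matter most here were small: 32 control and 17 IR stromal cells, 142 and 120 macrophages, 79 and 43 endothelial cells, and 26 and 46 mature dendritic cells (mature DC). The class called pDC-like, after plasmacytoid dendritic cells, was also led by Cd209a and Cd209d, and the cycling class holds several lineages. Each level below is the sum of UMIs over a class divided by all UMIs of that class, scaled to 1000000 (CPM). Intervals in brackets are 95% intervals that cover counting error only, not the variation between mice.

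The ligands were concentrated in a few rare classes. Summed over all 37 ligands, mature DC stood at 24911 CPM in the control library and 23807 CPM in the IR library, stromal cells at 12940 and 20267 CPM, NK cells at 7805 and 6863 CPM, effector and memory CD8 T cells at 6172 and 6354 CPM, and macrophages at 4744 and 4772 CPM. In mature DC, NK cells and CD8 T cells most of this level was Ccl5, at 21674, 7160 and 6127 CPM in the control library. Neutrophils, 3 control and 9 IR cells, stood at 16306 and 17187 CPM. MEC (myoepithelial cells) stood at 16539 and 2514 CPM, and 1182 of their 1280 control UMIs were Cxcl13 of 1 cell. Acinar cells stood at 46.1 and 62.8 CPM and B cells at 69.7 and 133 CPM. The order of these 2 classes depended on the totals. With the abundant secretory, hemoglobin and mitochondrial genes left out of them, acinar cells stood at 151 and 187 CPM and B cells at 77.4 and 146 CPM. Of 28 control ligands with a class of at least 10 cells and 5 UMIs, 8 were highest in stromal cells, 8 in macrophages and 5 in mature DC. Of 29 IR ligands, 12 were highest in stromal cells, 6 in mature DC and 5 in macrophages. Of those 12 IR ligands, 8 were highest in another class when the clustering was run at a resolution of 1.5, namely Cxcl1, Cxcl12, Cxcl14, Ccl21a, Ccl2, Ccl7, Ccl8 and Cxcl9. The IR stromal UMIs of Cxcl13 (122) and of Ccl8 (14) came from 1 cell each, and those of Ccl21a (17) from 3 cells. Counting ligands and receptors, the class with the highest level was the same in both libraries for 32 of 42 members.

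**Figure D1:**
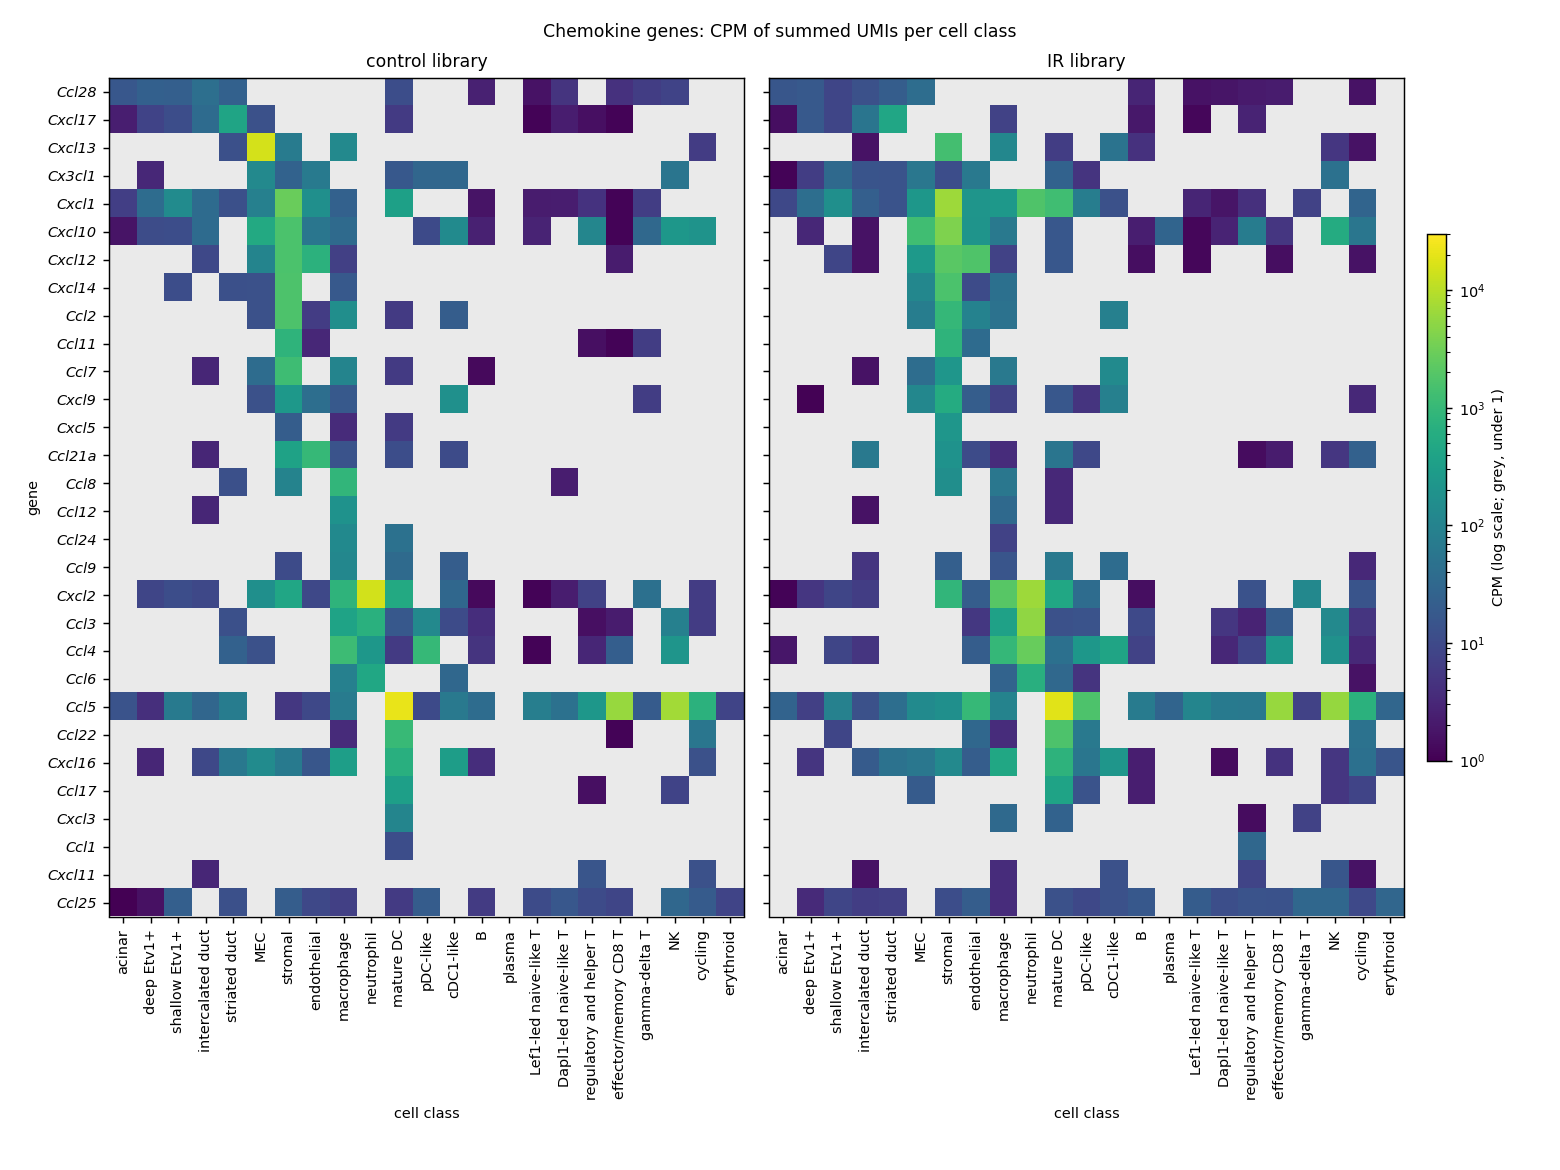
Levels of the chemokine genes with at least 20 UMIs (rows) in the 23 cell classes (columns) of the control library (left) and the IR library (right), as CPM of summed UMIs on a log colour scale, with grey for levels under 1. Most rows have their brightest cells under stromal, macrophage, neutrophil or mature DC; the neutrophil and plasma columns rest on 3 to 18 cells, and the MEC cell of Cxcl13 in the control library rests on 1 cell.

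Stromal cells, the fibroblast-like cells of the gland, carried Cxcl12, the retention signal of leukocytes and progenitors, at 1623 CPM in the control library (28 of 32 cells) and 2168 CPM in the IR library (14 of 17 cells). Cxcl14, a chemokine of connective tissue and epithelia, stood at 1696 CPM (11 of 32 cells) and 1594 CPM (12 of 17 cells) in these cells. Ccl11, also called eotaxin, an attractant of eosinophils, stood at 830 CPM (26 of 32 cells) and 814 CPM (14 of 17 cells). The levels of Cxcl14 and Ccl11 in the 2 libraries lay close together. Stromal cells gave 96.2% of control and 83.2% of IR UMIs of Cxcl14, and 96.4% and 89.9% of those of Ccl11. Endothelial cells were the next source of Cxcl12, at 768 CPM (39 of 79 cells) and 1732 CPM (20 of 43 cells). In the IR library 1 endothelial cell held 172 of the 327 UMIs of Cxcl12, and without the richest cell of each library the endothelial ratio was 1.39 rather than 2.26.

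In the control library the monocyte attractants were split between stromal cells and macrophages. Ccl2 stood at 1670 CPM in control stromal cells and 941 CPM in IR stromal cells, and at 163 and 48.8 CPM in macrophages. Ccl7 stood at 1216 and 229 CPM in stromal cells and at 106 and 63.8 CPM in macrophages. In the IR library other classes stood above macrophages. Ccl2 was at 95.4 CPM in endothelial cells, from 2 of 43 cells, and at 89.1 CPM (35.8 to 183) in cDC1-like dendritic cells. Ccl7 was at 140 CPM (69.9 to 250) in cDC1-like dendritic cells. Macrophages gave 96.5% and 81.8% of the UMIs of Ccl12, at 195 and 33.8 CPM. The genes Ccl2, Ccl7, Ccl11, Ccl12, Ccl8 and Ccl1 lie next to each other on chromosome 11, from 82035571 to 82305690 (mm10), yet their sources differed: the first 3 were highest in stromal cells, Ccl12 in macrophages, and Ccl1 in the regulatory and helper T class of the IR library. Detection of Ccl2 and Ccl7 coincided in single cells. Of the 32 control stromal cells, 7 held UMIs of both, where 9 held Ccl2 and 9 held Ccl7, and a product of the shares gives 2.53 cells. In control macrophages 7 of 142 cells held both, where the product gives 0.845. Such coincidence also grows with unequal depth among cells, and the part of depth was not tested.

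Macrophages were the class of at least 10 cells with the highest Ccl3 and Ccl4, attractants of monocytes and T cells. Ccl3 stood at 400 CPM in the control library and 364 CPM in the IR library, and Ccl4 at 1196 and 946 CPM. For Ccl4 the control interval of macrophages (1072 to 1330 CPM) overlapped that of pDC-like cells (826 to 1230 CPM). The control sums rested on few cells: the richest macrophage for Ccl3 held 72 UMIs of it, and the richest for Ccl4 held 190. Without the richest cell of each library the macrophage ratios of IR over control were 2.07 for Ccl3 and 1.54 for Ccl4, against 0.911 and 0.791 with them. Of the control macrophages 9 held both genes, where 12 held Ccl3 and 19 held Ccl4, and of the IR macrophages 14 held both, where 20 and 22 held them. In control macrophages Ccl8, a ligand of Ccr8 in mice, stood at 892 CPM in 13 of 142 cells, Ccl24, a second eotaxin, at 134 CPM in 3 cells, Ccl9 at 117 CPM in 5 cells and Ccl6 at 88.4 CPM in 9 cells. Ccl6 and Ccl9 are mouse ligands of Ccr1. Neutrophils, 3 control and 9 IR cells, held Cxcl2 at 64 UMIs in all 3 and 107 UMIs in 8 of 9, and Ccr1 at 2 UMIs and 21 UMIs. In the IR library 1 neutrophil held 85 UMIs of Ccl3, 29.4% of all IR UMIs of that gene, and the macrophages together held 33.6%. The control macrophages that held Ccl8, Ccl24, Ccl9 or Ccl6 were a small share of the class, for each gene from 3 to 13 of 142 cells.

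Mature DC, the migrating form of dendritic cells, had the highest level of Ccl5 among the 23 classes, 21674 CPM in 25 of 26 control cells and 18827 CPM in 45 of 46 IR cells. Ccl5 attracts T cells and monocytes. Of its control UMIs 34.2% came from these 26 cells, and of its IR UMIs 34.1% from the 46. Ccl22, which attracts regulatory T cells through Ccr4, stood at 1046 CPM (17 of 26 cells) and 1714 CPM (35 of 46 cells) in mature DC. Its neighbour on chromosome 8, Ccl17, which acts on the same receptor, stood at 341 CPM (5 of 26 cells) and 396 CPM (19 of 46 cells). Of the 19 IR cells with Ccl17, 18 also held Ccl22. Cxcl16, which is made as a membrane-bound protein and is the ligand of Cxcr6, stood at 676 CPM (22 of 26 cells) and 786 CPM (43 of 46 cells) in mature DC, and at 318 and 473 CPM in macrophages. Cx3cl1 lies between Ccl22 and Ccl17 on the chromosome, and its 77 and 83 UMIs were highest in MEC (myoepithelial cells) at 129 CPM in the control library and in endothelial cells at 63.6 CPM in the IR library, with overlapping intervals for these classes in both.

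Among lymphocytes, Ccl5 marked the effector and memory CD8 T class, with 6127 CPM in 200 of 214 control cells and 6066 CPM in 366 of 386 IR cells, and NK cells, with 7160 CPM in 28 of 34 cells and 5855 CPM in 72 of 81 cells. Acinar cells, which should lack Ccl5, held a UMI of it in 5.85% of control cells and 7.03% of IR cells, and B cells in 5.38% and 6.59%. In these classes 1 acinar cell held 43.9% of the control and another 45.1% of the IR UMIs of Ccl5, and 1 B cell held 27% and 22.7%, so free RNA, doublets and misplaced cells cannot be told apart in these shares. Median depths were 5444 and 5544.5 UMIs in acinar cells and 2539 and 2174.5 in B cells. Ccl3 and Ccl4, released by cytotoxic cells on activation, were sparse in control CD8 T cells, at 2.18 CPM in 2 cells and 21.8 CPM in 12 cells. NK cells held Ccl4 at 215 CPM in 6 of 34 control cells and at 186 CPM in 7 of 81 IR cells.

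**Figure D2:**
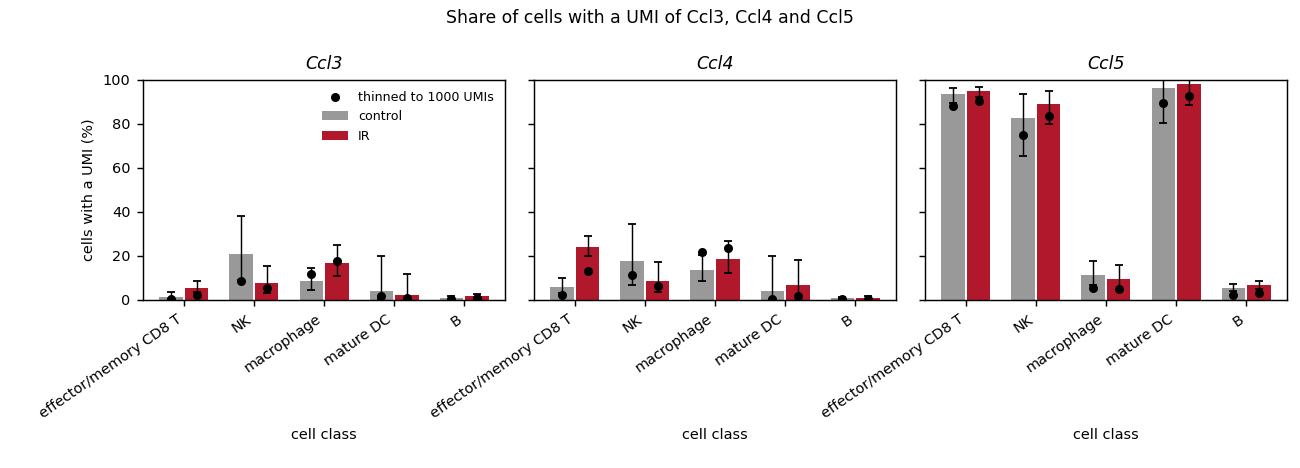
Share of cells (%) with a UMI of Ccl3, Ccl4 and Ccl5 in 5 cell classes, with grey bars for the control library and red bars for the IR library; error bars are 95% exact binomial intervals, and black points give the share after each cell was thinned to 1000 UMIs, with shallower cells left out. In the effector and memory CD8 T class 12 of 214 control cells held Ccl4, against 93 of 386 IR cells, while 200 and 366 held Ccl5.

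Epithelial classes differed in their main ligands. Cxcl17, a mucosal chemokine, was highest in striated duct cells, at 412 CPM (27 of 91 cells) in the control library and 447 CPM (41 of 77 cells) in the IR library. It was found at 36.6 and 55.5 CPM in intercalated duct cells and at 8.12 and 17.9 CPM in the deep Etv1+ class, the Etv1-positive secretory cells with many UMIs. Ccl28 stood at 23.7 CPM (105 of 208 cells) and 18.1 CPM (56 of 187 cells) in the deep Etv1+ class, and at 16.6 and 15.97 CPM in acinar cells. In intercalated duct cells Ccl28 had 14 control and 8 IR UMIs (42.7 and 13.1 CPM). Cxcl1 was the other epithelial ligand with many UMIs, at 37.9 CPM (63 of 208 cells) and 41.4 CPM (49 of 187 cells) in the deep Etv1+ class. In the shallow Etv1+ class, the Etv1-positive cells with few UMIs, Cxcl1 stood at 146 CPM (6 of 65 cells) and 171 CPM (10 of 86 cells). Thus each of these epithelial levels, other than those of Ccl28 in intercalated duct cells and Cxcl17 in the deep Etv1+ class, differed by less than 2-fold between the libraries. In striated duct cells the secretory genes took 23.8% of control and 49.1% of IR UMIs, and median depth was 721 and 2005 UMIs. The ratio of Cxcl17 there was 1.08, and 1.62 with the abundant secretory, hemoglobin and mitochondrial genes left out of the totals. In the deep Etv1+ class 1 control cell held 59.0% of the UMIs of Cxcl17.

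Several of the lymphoid-tissue chemokines came from single cells. Of the 1238 control UMIs of Cxcl13, the B cell attractant of follicles, 1182 came from 1 cell that clustered with MEC but held 1 UMI of Acta2 and none of Krt14, beside 45 UMIs of Cr2, a complement receptor of follicular dendritic cells and B cells, and 5 of Madcam1. In the IR library 122 of 173 UMIs came from 1 cell of the stromal class. Of the 313 control UMIs of Ccl21a in endothelial cells, 312 came from 1 cell, which also held 2898 UMIs of Glycam1, a glycoprotein of high endothelial venules. In the IR library 40 UMIs of Ccl21a came from 1 cell of the intercalated duct class. No class level of Cxcl13 or Ccl21a therefore describes a class, and Ccl21a has near-identical copies among which reads cannot be assigned with certainty. Ccl1, a ligand of Ccr8, had 45 IR UMIs in 3 cells of the regulatory and helper T class and 2 control UMIs in 1 cell. Ccl25, the ligand of Ccr9, had 94 UMIs in 92 control cells and 203 in 193 IR cells, and its gene overlaps Elavl1 on the opposite strand.

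The remaining ligands were rare. Cxcl9 stood at 240 CPM in control and 573 CPM in IR stromal cells, and at 180 and 89.1 CPM in cDC1-like cells, the cross-presenting dendritic cells. The cDC1-like levels rest on 17 UMIs in 2 of 12 control cells, 88.2% of them in 1 cell, and 7 UMIs in 5 of 13 IR cells. Cxcl11 had 15 and 26 UMIs, of which 10 and 12 were in the regulatory and helper T class. Cxcl3 had 19 control UMIs, all in 1 mature dendritic cell, and 20 IR UMIs in 7 cells. Cxcl5 had 7 and 20 UMIs, of which 4 and 20 were in stromal cells. Under 20 UMIs over both libraries were found for Ccl27a (19), Ccl20 (15), Cxcr2 (13), Ccl19 (6) and Ccr3 (2). Ccl26, Cxcr1, Cxcl15, Ccl21b and Ccl27b had none. With 0 of 5286 IR cells, the share of cells with a UMI could still be up to 0.0568%, and with 0 of 3378 control cells up to 0.0888%.

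Receptors divided the immune classes. Cxcr5, the follicle-homing receptor, and Ccr6, the receptor of Ccl20, were highest in B cells, Cxcr5 at 116 CPM (222 of 837 cells) in the control library and 110 CPM (189 of 834 cells) in the IR library, and Ccr6 at 121 CPM (202 of 837) and 106 CPM (167 of 834). Cxcr4 was also highest in B cells among classes of at least 10 cells, at 120 CPM (217 of 837) and 188 CPM (289 of 834), but the control interval of B cells (106 to 135 CPM) overlapped that of regulatory and helper T cells (87.4 to 140 CPM). In the IR library the interval of B cells (170 to 208 CPM) overlapped that of NK cells (75.3 to 178 CPM). Both Cxcr5 and Ccr6 were held by 49 control B cells, where the product of their shares gives 53.6, and by 44 IR B cells, where it gives 37.8. The count was thus below the product in the control library and above it in the IR library.

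Ccr7 was highest in mature DC, at 3139 CPM in both libraries (25 of 26 and 45 of 46 cells). The naive-like T classes and the regulatory and helper T class followed. The class led by Dapl1 stood at 1082 CPM in the control library and 1326 CPM in the IR library, and the class led by Lef1 at 1059 and 1076 CPM. The regulatory and helper T class stood at 1003 and 1105 CPM, above the Lef1-led class in the IR library. Plasmacytoid-like cells were marked by Ccr9, a gut and thymus homing receptor, at 1023 CPM (17 of 18 cells) and 1400 CPM (39 of 41 cells). Its gene overlaps another on the same strand. Xcr1, the receptor of Xcl1, was found in 6 of 12 and 9 of 13 cDC1-like cells, at 159 and 560 CPM, which held 71.4% and 89.8% of its UMIs. Cx3cr1 was highest in macrophages, at 159 CPM (23 of 142 cells) and 229 CPM (28 of 120 cells).

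**Figure D3:**
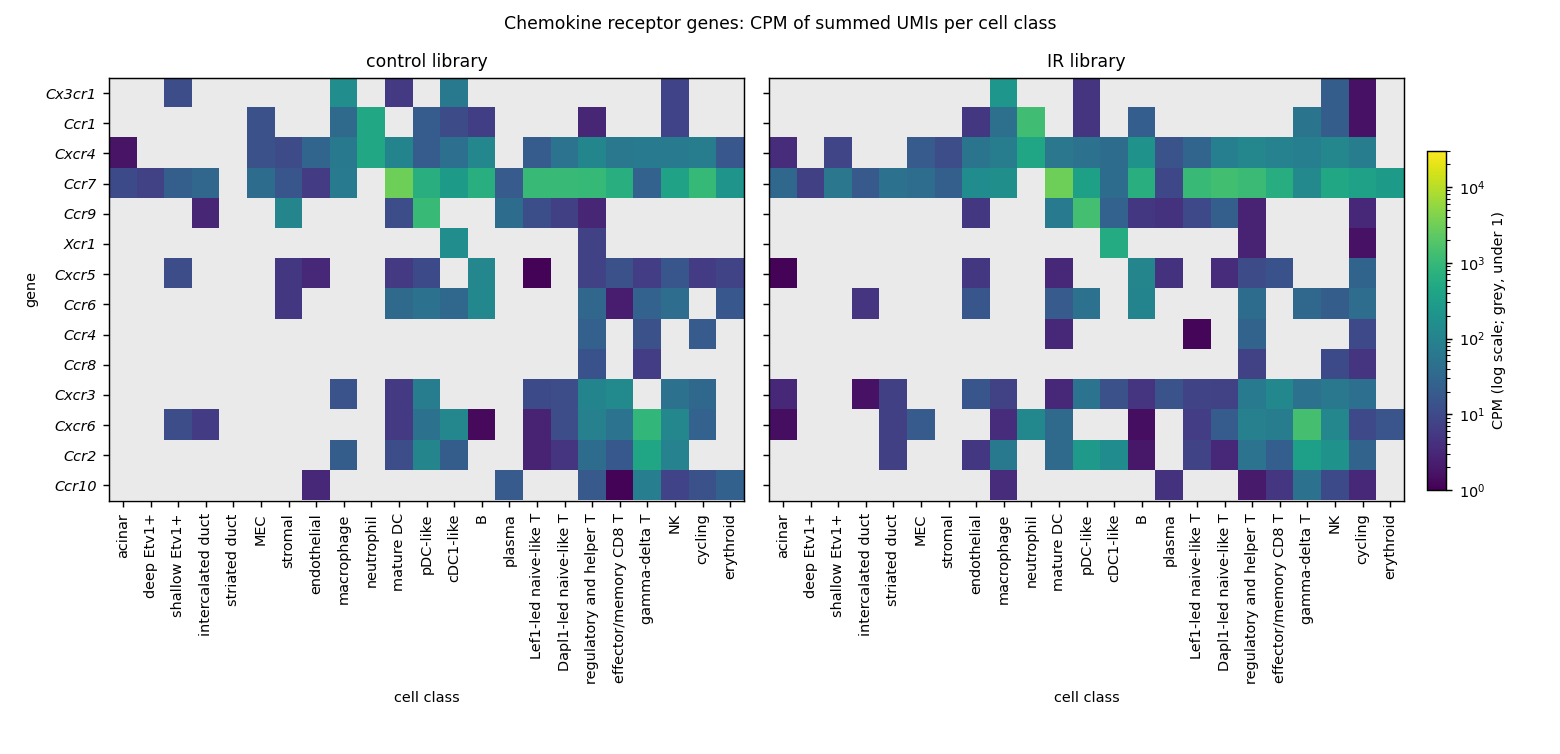
Levels of the chemokine receptor genes with at least 20 UMIs, 1 left out (rows) in the 23 cell classes (columns) of the control library (left) and the IR library (right), as CPM of summed UMIs on a log colour scale, with grey for levels under 1. Ccr7 and Cxcr4 reach most immune classes, while Xcr1, Ccr8, Ccr4 and Cx3cr1 are bright in 1 or a few classes.

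In the gamma-delta T class, Cxcr6 stood at 910 CPM in 40 of 45 control cells and 1434 CPM in 39 of 42 IR cells, above the next class with an interval that did not overlap. In B cells, which should lack it, 0.358% and 0.360% of cells held a UMI. Gamma-delta T cells were also highest in Ccr2, the receptor of Ccl2, at 455 CPM (33 of 45 cells) and 337 CPM (21 of 42 cells), and in Ccr10, at 83.3 CPM (11 of 45 cells) and 46 CPM (6 of 42 cells). Nearly all of their Ccr2-positive cells also held Cxcr6, 31 of 33 in the control library and all 21 in the IR library, where the product of shares gives 29.3 and 19.5. In the IR library the interval of Ccr2 in gamma-delta T cells (245 to 453 CPM) overlapped that of pDC-like cells (191 to 331 CPM). Cxcr3 was highest in effector and memory CD8 T cells, at 140 CPM (79 of 214) and 121 CPM (125 of 386). Its control interval there (117 to 167 CPM) overlapped those of regulatory and helper T cells (82.0 to 133 CPM) and pDC-like cells (34.3 to 157 CPM). Its IR interval there (103 to 141 CPM) overlapped that of NK cells (32.0 to 108 CPM). Ccr4 and Ccr8 were highest in the regulatory and helper T class, Ccr4 at 24.1 and 27.1 CPM and Ccr8 at 13.5 and 7.65 CPM.

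Splitting T cells by their own transcripts separated the receptors further. In the IR library, the 100 T cells with a UMI of Foxp3, the regulatory T cell factor, had 80.8 CPM of Ccr6 against 4.89 CPM in the 2721 without, 40.4 against 4.61 CPM of Ccr4, and 91.8 against 14.5 CPM of Ccr2. The ratios were 16.5 (9.23 to 28.9), 8.76 (3.99 to 17.8) and 6.31 (3.91 to 9.85). In the control library, with 40 Foxp3-positive cells, the ratio of Ccr6 was 7.77 (2.26 to 21.7) and that of Cxcr4 was 2.96 (1.71 to 4.83). That of Ccr2 was 2.54 (0.664 to 6.99), on 4 UMIs in the Foxp3-positive cells. Of T cells with Cd4 and no Cd8 UMIs against those with Cd8 and no Cd4 UMIs, the IR library gave a ratio of 0.343 (0.209 to 0.539) for Cxcr6 and 0.0297 (0.0233 to 0.0374) for Ccl5. In the control library the ratio was 0.931 (0.472 to 1.73) for Cxcr6 and 0.101 (0.0846 to 0.119) for Ccl5. Foxp3-positive cells were thus the richer ones in Ccr6 in both libraries, and Cd8-positive cells in Ccl5.

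Known pairs were set side by side by the class with the highest level of each gene. Of 35 textbook ligand and receptor pairs, 25 had a source and a receiver class in the control library and 26 in the IR library. Source and receiver were the same class for 3 and 1 of these. With 1 highest class taken per gene among many, few matches would arise for unrelated genes too, and that level was not worked out. Cxcl16 of mature DC faced Cxcr6 of gamma-delta T cells, Cxcl12 of stromal cells faced Cxcr4 of B cells, Ccl17 and Ccl22 of mature DC faced Ccr4 of the regulatory and helper T class, and Cxcl9 and Cxcl10 of stromal cells faced Cxcr3 of CD8 T cells, in both libraries. At a resolution of 1.5 Cxcl12 was instead highest in endothelial cells, Cxcl9 in cDC1-like cells and Ccr4 in gamma-delta T cells, also in both libraries. Xcl1, the Xcr1 ligand and a leading gene of the NK cluster, stood at 621 CPM in control and 661 CPM in IR NK cells, facing Xcr1 of cDC1-like cells. The pairs of Cxcr2 and of Ccr3 lacked a receiver among classes of at least 10 cells. Cxcr2 had 2 UMIs in the 3 control neutrophils and 5 in the 9 IR neutrophils, and its ligands Cxcl1 and Cxcl2 had 2457 and 1557 UMIs over both libraries. A level of RNA on both sides does not show that the proteins meet.

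Over all kept cells, member UMIs stood at 1446 CPM in the control library and 1958 CPM in the IR library, a ratio of 1.35 (1.33 to 1.37). The ratio was 1.22 for ligands and 1.64 for receptors, and 1.13 over all members when the abundant secretory, hemoglobin and mitochondrial genes were left out of the totals. T cell classes took a larger share of the IR library, and in these sums more cells of a type and more RNA per cell cannot be told apart. Within classes, 160 gene and class entries had at least 20 UMIs and at least 1 in each library. Of these, 59 had a ratio of at least 2 or at most 0.5, which is 36.9%, against 11.3% of all 80457 gene and class entries by the same rule. Higher in the IR library were 42 (26.3%, against 7.58% of all) and lower were 17 (10.6%, against 3.69% of all). Ligands gave 41 of 94 entries, 26 higher and 15 lower, with a median ratio of 1.34, and receptors gave 18 of 66, 16 higher and 2 lower, with a median of 1.26. At a ratio of 1.5 the members gave 95 of 160 entries against 30.1% of all, at a ratio of 3 they gave 35 against 3.08%, and with at least 50 UMIs 35 of 96 entries passed 2-fold against 5.9% of all. The medians over all genes of a class ran from 0.559 in striated duct cells to 1.48 in erythroid cells. Of the 59, 34 kept their fold under every alternative that gave a value. Of those, 17 had a counting interval wholly past it and a value without the richest cell of each library. For some of the 34 the sums without the richest cell of each library gave no value. These were Ccl21a in intercalated duct and endothelial cells, Cxcl3 and Ccr9 in mature DC, and Ccl5 in pDC-like cells. Both Ccl21a entries and that of Ccl5 also had an interval wholly past 2-fold, but they are not counted in the 17.

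**Figure D4:**
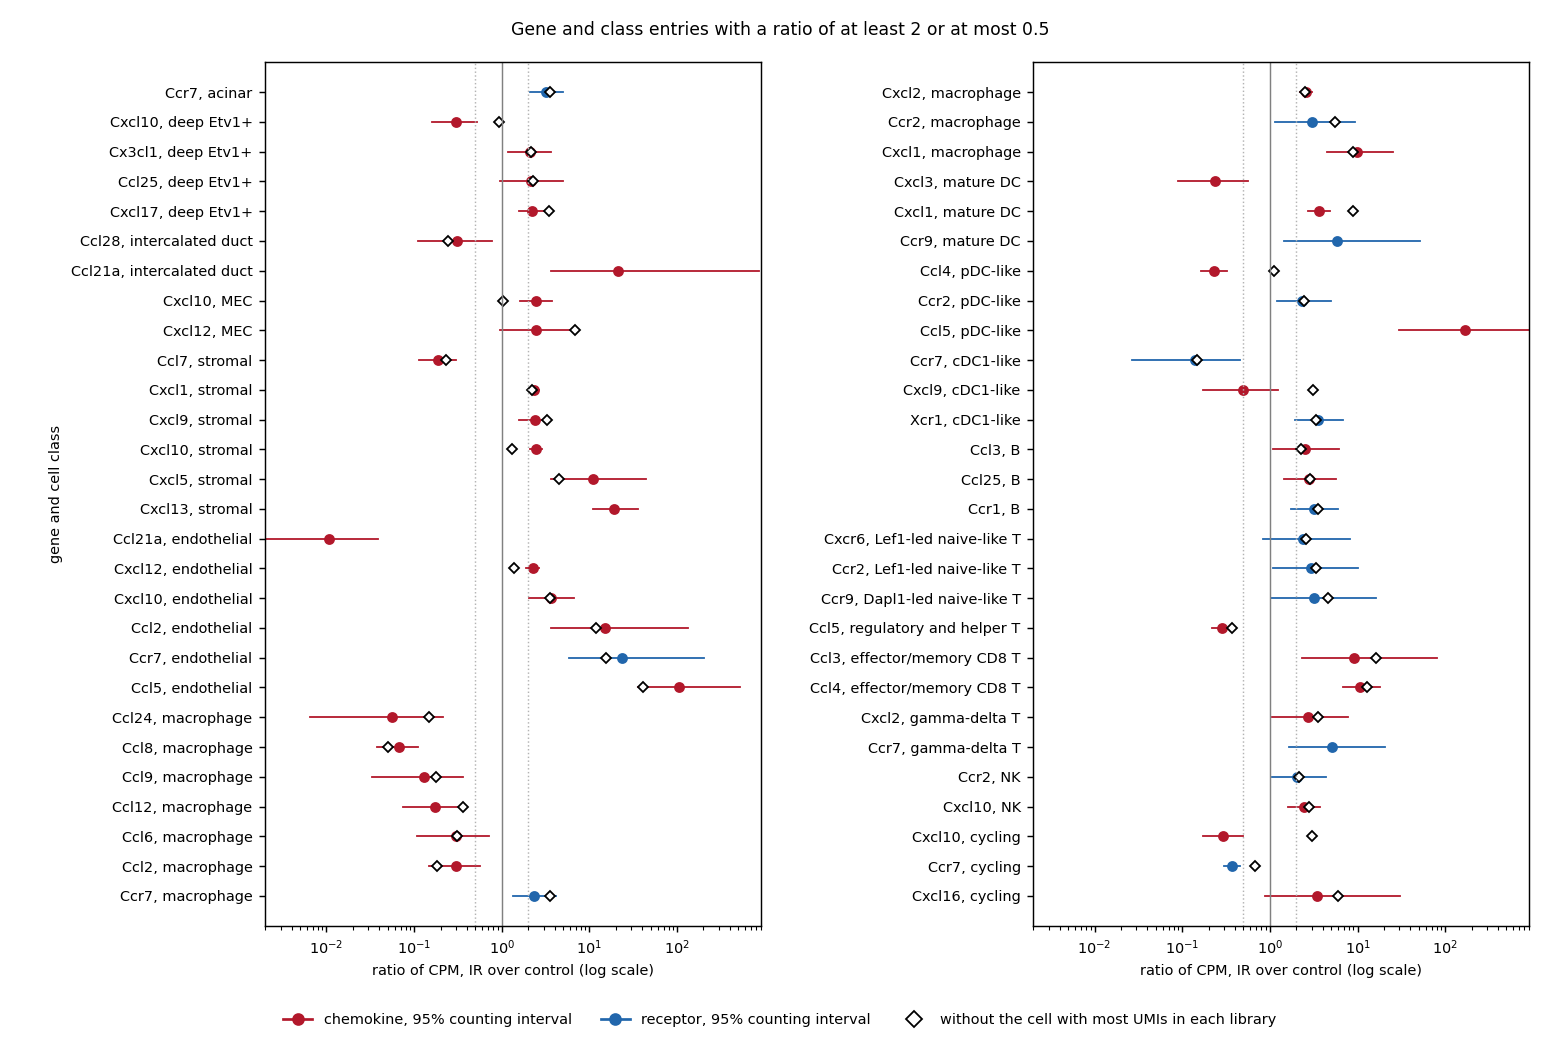
Gene and class entries with a ratio of CPM, IR over control, of at least 2 or at most 0.5, 56 of the 59 (x axis, log scale), ordered by class, with red for chemokines, blue for receptors, lines for 95% counting intervals (cut at the ends of the axis) and dotted lines at 0.5 and 2. Open diamonds give the ratio without the cell with most UMIs of the gene in each library and are absent where none was left to compare; several, such as Cxcl10 in stromal cells and Ccl4 in pDC-like cells, moved back toward 1.

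In stromal cells the neutrophil attractants Cxcl1 and Cxcl5 were past 2-fold higher and the monocyte attractant Ccl7 past 2-fold lower in the IR library. Cxcl1 (ENSMUSG00000029380.11) went from 2859 CPM in 16 of 32 control cells to 6698 CPM in 16 of 17 IR cells, a ratio of 2.34 (2.08 to 2.64). That ratio was 1.92 with a mitochondrial limit of 10% and 1.22 at a clustering resolution of 1.5. Cxcl5 had 4 UMIs in 3 control cells and 20 in 3 IR cells, 16 of them in 1 cell, a ratio of 11 (3.68 to 44.2). Cxcl2 went from 454 to 872 CPM, in 5 cells of each library, a ratio of 1.92 (1.39 to 2.64). Ccl7 went from 1216 to 229 CPM, a ratio of 0.189 (0.113 to 0.298), though it was found in 9 of 32 and 7 of 17 cells. Of 14 stromal entries of at least 20 UMIs, 5 were past 2-fold higher and 1 lower. Among those within 2-fold, Ccl2 had a ratio of 0.563 (0.436 to 0.720), and Ccl11, Cxcl12 and Cxcl14 had ratios of 0.982, 1.34 and 0.940. Among all genes of the stromal class, 9.51% were past 2-fold higher and 12.4% past 2-fold lower. Median depth was 6277 UMIs in control and 3828 UMIs in IR stromal cells, and its part in these ratios was not tested.

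Cxcl10 in stromal cells showed how much 1 cell can carry. Its level was 1623 CPM in the control library and 4014 CPM in the IR library, a ratio of 2.47, but 263 of the 350 IR UMIs came from 1 cell. That cell held 26032 UMIs, 29.9% of all UMIs of the IR stromal class, and all 122 stromal UMIs of Cxcl13. It held 96 UMIs of Glycam1, 15 of Madcam1, 16 of Lyve1 and 6 of Prox1, the last a factor of lymphatic endothelium, beside 19 of Dcn and 4 of Col1a2, which are stromal genes. Without it, the ratio of Cxcl10 was 0.877 (0.683 to 1.12), while that of Cxcl1 was 3.08 (2.73 to 3.47), that of Ccl7 was 0.215 (0.121 to 0.357) and that of Cxcl12 was 1.84 (1.53 to 2.22). Of the 5 entries past 2-fold higher, 2 kept it without that cell, Cxcl1 and Cxcl5 (13.3), while Cxcl9 had a ratio of 1.57 and Cxcl13 had no IR UMI left. Cxcl2 (2.05) and Ccl8 (2.31, in 1 IR cell) were past 2-fold higher only without it.

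**Figure D5:**
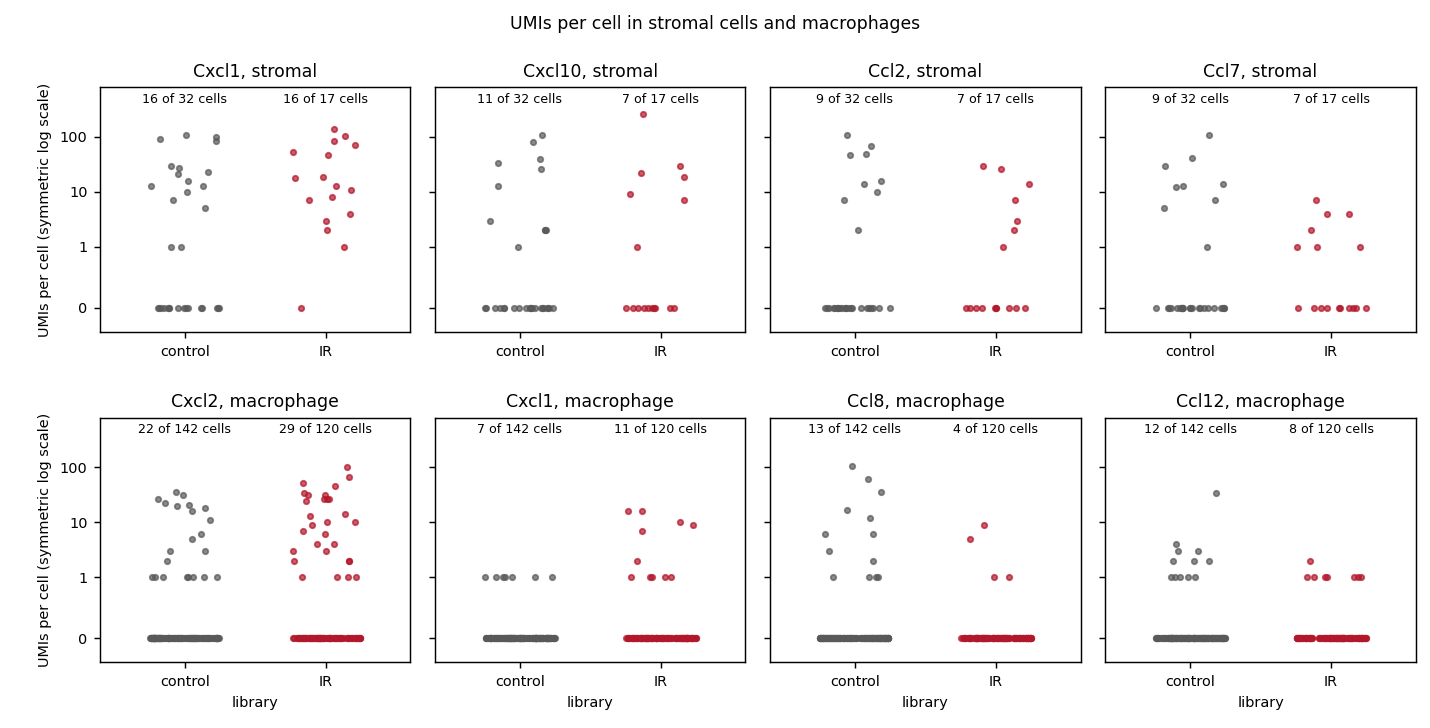
UMIs per cell (y axis, symmetric log scale, 1 point per cell, spread sideways at random) of 4 genes in stromal cells (top) and 4 genes in macrophages (bottom), for the control and the IR library, with the number of cells that hold the gene above each column. Cxcl1 is found in 16 of 17 IR stromal cells, while the sums of Cxcl10 in stromal cells and of Ccl8 in macrophages rest on a few cells with many UMIs.

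In macrophages the neutrophil attractants were also higher in the IR library, and several CC ligands were lower. Cxcl2 (ENSMUSG00000058427.10) went from 803 CPM in 22 of 142 cells to 2091 CPM in 29 of 120 cells, a ratio of 2.60 (2.23 to 3.05), and Cxcl1 from 24.8 CPM in 7 cells to 244 CPM in 11 cells, a ratio of 9.86 (4.52 to 25.5). In the other direction Ccl8 (ENSMUSG00000009185.2) had a ratio of 0.0674 (0.0379 to 0.112), Ccl24 of 0.0559 (0.00653 to 0.216), Ccl9 of 0.129 (0.0331 to 0.362) and Ccl12 of 0.174 (0.0755 to 0.354). Ccl2 had a ratio of 0.300 (0.149 to 0.565), Ccl6 of 0.297 (0.109 to 0.707), Ccl3 of 0.911 and Ccl4 of 0.791. In all, 4 of 21 macrophage entries were past 2-fold higher, against 4.97% of all genes, and 6 past 2-fold lower, against 8.28%. The genes lower in the IR library came from few of the 142 control cells, 12 for Ccl12, 15 for Ccl2 and the others as given above. In the control library 1 cell held 81.6% of the UMIs of Ccl24, 63.6% of Ccl9 and 61.8% of Ccl12. Without the richest cell of each library their ratios were 0.149 (0.00331 to 1.16), 0.177 (0.0193 to 0.796) and 0.364 (0.131 to 0.889).

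A subset of macrophages with more UMIs per cell, 36 in each library, held most of these UMIs. The exceptions, in the IR library, were Ccl8 (1 of 16 UMIs), Ccl12 (4 of 9) and Ccl24 (0 of 2). In this subset Cxcl2 had 222 UMIs in 18 control cells and 556 in 28 IR cells, and Cxcl1 had 6 UMIs in 6 cells and 64 in 10. Ccl8 had 239 UMIs in 7 cells and 1 in 1 cell, Ccl12 had 45 in 7 and 4 in 3, and Ccl24 had 38 in 3 and 0. Cxcl16 went from 70 UMIs in 23 cells to 114 in 30, and Cx3cr1 from 42 in 20 to 58 in 25. Median depth of this subset was 3970.5 UMIs in the control and 3482.5 UMIs in the IR library. Of the 11 IR macrophages with Cxcl1, 10 also held Cxcl2, which was found in 29, where the product of shares gives 2.66, and of the 7 control macrophages with Cxcl1 5 did, where it gives 1.08. Within the deeper subset 10 IR cells held both, where the product gives 7.78, and 4 control cells, where it gives 3.0. The excess over the product was thus smaller within that subset, and the part of depth was not tested.

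Cxcl5, Cxcl3, Cxcl15, Cxcl1 and Cxcl2 lie in that order on chromosome 5, from 90759360 to 90905938, and promoters are shown because Cxcl1 and Cxcl2 were both higher in IR macrophages. The window of each runs from 250 bases before to 50 bases after the start of the gene (RefSeq, GRCm38.p6, plus strand), and the capitals mark the NF-kappaB motif GGAATTTCC, which begins 70 bases before the start of Cxcl1, 96 before that of Cxcl2 and 72 before that of Cxcl3. Cxcl1 lies at chr5:90890995-90891294, Cxcl2 at chr5:90903649-90903948 and Cxcl3 at chr5:90785851-90786150.
Cxcl1: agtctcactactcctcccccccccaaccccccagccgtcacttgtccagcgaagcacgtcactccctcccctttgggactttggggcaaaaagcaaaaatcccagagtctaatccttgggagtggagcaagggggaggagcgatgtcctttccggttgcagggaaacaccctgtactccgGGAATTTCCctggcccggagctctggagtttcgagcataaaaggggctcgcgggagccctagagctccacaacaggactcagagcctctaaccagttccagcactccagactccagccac
Cxcl2: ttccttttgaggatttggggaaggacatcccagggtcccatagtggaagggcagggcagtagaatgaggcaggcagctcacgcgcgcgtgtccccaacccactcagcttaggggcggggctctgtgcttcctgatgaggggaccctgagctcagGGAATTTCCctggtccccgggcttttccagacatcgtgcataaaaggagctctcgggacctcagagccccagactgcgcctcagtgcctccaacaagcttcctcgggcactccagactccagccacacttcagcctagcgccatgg
Cxcl3: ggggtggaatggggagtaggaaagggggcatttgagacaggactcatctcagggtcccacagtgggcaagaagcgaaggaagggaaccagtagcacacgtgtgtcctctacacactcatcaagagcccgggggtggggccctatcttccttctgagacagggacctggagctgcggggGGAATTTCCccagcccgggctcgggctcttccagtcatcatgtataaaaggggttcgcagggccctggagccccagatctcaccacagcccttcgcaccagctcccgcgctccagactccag
The motif was searched on both strands and was found in 5 of 47 promoter windows of 40 members, those 3, Ccr3 and Cxcl10, and in 104 of all 32851 windows, or 0.317%.

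Cxcl10 holds this motif on the other strand, beginning 158 bases before its start, and 213 bases before it the core of the interferon response element, GAAA and a second GAAA with 2 bases of any kind between them. That core, searched on both strands, was found in 3 of 47 member windows, those of Ccl19, Cxcl10 and Cxcl14, and in 3.44% of all, and it does not overlap the other motif. The Cxcl10 window, chr5:92348840-92349139 on the minus strand (GRCm38.p6), is shown with both motifs in capitals because its gene passed 2-fold in 6 classes, each time on few cells.
Cxcl10: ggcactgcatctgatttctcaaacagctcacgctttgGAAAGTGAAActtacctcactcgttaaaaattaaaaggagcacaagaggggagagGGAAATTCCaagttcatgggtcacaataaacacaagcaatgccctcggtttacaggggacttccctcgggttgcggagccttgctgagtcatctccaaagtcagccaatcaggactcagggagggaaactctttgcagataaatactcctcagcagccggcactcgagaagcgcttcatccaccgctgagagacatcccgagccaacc
A match is a run of letters in this window and not a shown binding site. Besides stromal cells, Cxcl10 was past 2-fold higher in the IR library in endothelial cells (56.9 and 207 CPM, in 5 of 79 and 6 of 43 cells), in NK cells (239 and 579 CPM, in 3 of 34 and 7 of 81 cells) and in MEC (517 and 1257 CPM, in 2 of 18 and 2 of 24 cells). The ratios were 3.63 (2.03 to 6.75), 2.42 (1.61 to 3.76) and 2.43 (1.61 to 3.71). In MEC 1 cell held 87.5% of the control and 93.8% of the IR UMIs, and the ratio was 1.04 without the richest cell of each library and 0.0532 with a mitochondrial limit of 10%. It was past 2-fold lower in the deep Etv1+ class, 10.8 and 3.20 CPM, and in the cycling class, 196 and 57.2 CPM, where 1 control cell held 76.5% and 93.5% of the UMIs.

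In mature DC, Cxcl1 was higher in the IR library, 353 CPM in 8 of 26 cells against 1273 CPM in 32 of 46 cells, a ratio of 3.61 (2.75 to 4.81). The control sum was led by 1 cell, and without the richest cell of each library the ratio was 8.87. Cxcl2 in the same cells had a ratio of 0.895, with 8 of 26 and 24 of 46 cells. Their other main products lay closer together, with ratios of 0.869 for Ccl5, 1.16 for Ccl17, 1.16 for Cxcl16, 1.64 for Ccl22 and 1.0 for Ccr7. Cxcl1 was thus past 2-fold higher in the IR library in macrophages and mature DC, and in stromal cells with the limits given above, with 12.8% of all genes past 2-fold higher in mature DC. Its ratio was 1.09 in the deep Etv1+ class, 1.17 in the shallow Etv1+ class, 1.37 in acinar cells and 0.624 in intercalated duct cells. In endothelial cells it was 1.27, with 68.3% of the IR UMIs in 1 cell. Without the richest cell of each library the endothelial ratio was 0.513 (0.254 to 0.968).

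In effector and memory CD8 T cells, Ccl4 (ENSMUSG00000018930.3) went from 21.8 CPM in 12 of 214 control cells to 235 CPM in 93 of 386 IR cells, a ratio of 10.8 (6.88 to 17.9). Its neighbour Ccl3 went from 2.18 CPM in 2 cells to 20.05 CPM in 21 cells, a ratio of 9.21 (2.31 to 79.9). Of the 21 IR cells with Ccl3, 12 also held Ccl4. Ccl5 had a ratio of 0.990 (0.957 to 1.02) in this class, although it lies in the same run of genes on chromosome 11, from 83525778 to 83664683. No IR cell held more than 5.05% of the Ccl4 UMIs of this class. The IR cells were the shallower ones, with a median of 3426.5 UMIs against 4318 in the control library. In this class 7.31% of all genes were past 2-fold higher. Of its receptors, Cxcr6 had a ratio of 1.54 (1.08 to 2.22) and Cxcr3 of 0.862 (0.680 to 1.09). In NK cells the ratio of Ccl4 was 0.865 (0.511 to 1.48), which does not overlap the interval in CD8 T cells. In the regulatory and helper T class Ccl5 was lower in the IR library, 230 CPM in 29 of 221 cells against 65.4 CPM in 43 of 547 cells, a ratio of 0.284 (0.217 to 0.370), and 1 control cell held 34% of its UMIs.

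Endothelial cells gave 5 of 8 entries past 2-fold higher, against 5.12% of all genes, and 1 lower, against 3.84%, which was Ccl21a of the single control cell. Ccl5 had 3 control UMIs in 3 cells and 189 IR UMIs in 3 cells, of which 142 were in 1 cell, a ratio of 106 (35.6 to 517). Ccl2 had 2 UMIs in 2 cells and 18 in 2 cells, a ratio of 15.1 (3.61 to 134). Ccr7 had 2 UMIs in 2 cells and 28 in 5 cells, a ratio of 23.5 (5.92 to 203). All 3 rest on 2 to 5 of 43 IR cells. Ccl5 and Ccr7 had their highest levels in mature DC, and whether these endothelial barcodes hold RNA of another cell was not tested.

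Among receptors, the 2 entries past 2-fold lower were those of Ccr7 in cDC1-like and in cycling cells. In cDC1-like cells Xcr1 went from 159 CPM in 6 of 12 cells to 560 CPM in 9 of 13 cells, a ratio of 3.52 (1.92 to 6.81), and Ccr7 from 276 CPM in 7 cells to 38.2 CPM in 3 cells, a ratio of 0.139 (0.0268 to 0.452). In the pDC-like class Ccl5 had 1 UMI in 1 of 18 control cells and 352 UMIs in 9 of 41 IR cells, a ratio of 166 (29.7 to 6592). In the same class Ccr2 had a ratio of 2.32 (1.20 to 4.92) and in NK cells of 2.05 (1.05 to 4.32). In B cells Ccr1 went from 13 of 837 to 35 of 834 cells, a ratio of 3.15 (1.75 to 5.97). In macrophages the ratio of Ccr2 was 3.01 (1.13 to 9.31) on 6 control UMIs. In Lef1-led naive-like T cells it was 2.95 (1.08 to 10.1) on 5 control UMIs. The ratio in NK cells fell to 1.38 under an alternative. Ccr2 was thus past 2-fold higher in 4 of the 7 classes that gave it an entry, where 7.58% of all entries were. In gamma-delta T cells, where Ccr2 was highest, its ratio was 0.742 (0.497 to 1.10). Cxcr4, with 10 entries, ran from a ratio of 0.562 in mature DC to 1.66 in NK and in Dapl1-led naive-like T cells, and Cxcr6 in gamma-delta T cells had a ratio of 1.58 (1.26 to 1.97). In acinar cells Ccr7, a gene of lymphocytes and dendritic cells, was found in 19 of 376 and 34 of 370 cells, a ratio of 3.22 (2.10 to 5.05), beside Ccl5 with a ratio of 1.90 (1.28 to 2.86). Naive-like T cells, which also hold Ccr7, made up more of the IR library, with 131 control and 871 IR cells in the Dapl1-led class, and their part in these UMIs was not tested.

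Other genes of the pathway were counted by list. Of 35 entries of atypical receptors and other chemokines, 3 were past 2-fold higher and 5 lower, with a median ratio of 0.898. Of 292 entries of receptor signalling genes 32 were higher and 7 lower, with a median of 1.22. Of 74 entries of genes that process or present chemokines 7 were higher and 2 lower, with a median of 1.04, and of 153 entries of inducers 24 were higher and 11 lower, with a median of 1.12. The shares past 2-fold were 22.9%, 13.4%, 12.2% and 22.9%, beside 11.3% of all entries. Ccrl2, an atypical receptor that presents chemerin, stood at 177 CPM in control and 413 CPM in IR macrophages and at 330 and 539 CPM in mature DC. Nfkbia, an NF-kappaB inhibitor and target, stood at 647 and 1115 CPM in macrophages and at 1638 and 1720 CPM in stromal cells. Ltb, lymphotoxin beta, which induces lymphoid chemokines, stood at 358 and 1087 CPM in Dapl1-led naive-like T cells, and Tnfaip3, another inhibitor of NF-kappaB, stood at 318 and 584 CPM in mature DC. Ackr1, another atypical receptor, had 11 control UMIs in 6 cells and 4 IR UMIs in 4 cells. The pathway genes given here by class were higher in the IR library in each class given, and none of the entries past 2-fold lower is named. They therefore do not stand for their lists.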

How the data were processed

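The data are single-cell RNA counts of 2 libraries, control and IR. According to the submitters' processing notes and the study's methods, the authors aligned reads to mm10 with Cell Ranger 3.0.1 and analysed them in Seurat 3, and the deposited matrices hold UMI counts per gene and barcode, 5550 control and 7793 IR barcodes with 22707876 and 23890757 UMIs. Cells with at least 200 genes and at most 5% mitochondrial UMIs were kept. Libraries were integrated with Seurat 5.3.0 in R 4.3.3 on 2000 variable genes without members, with 30 components and a resolution of 1, and the myeloid clusters and the stromal, endothelial and MEC clusters were split again with 20 components and a resolution of 0.8. A class was named where at least 3 markers stood 2-fold above other cells on at least 5 UMIs each. The cluster left unnamed also met this rule, for 5 of 8 plasma cell markers and 3 of 5 erythroid markers. No barcode was removed as a doublet in the results given, and an alternative left out the 6% with the highest doublet scores (scanpy 1.11.5), 520 cells. Counts were summed by class and library in Python 3.11.15 with numpy 2.4.6, scipy 1.17.1 and pandas 2.3.3 and drawn with matplotlib 3.10.9. Sums carry exact Poisson, shares exact binomial (Clopper-Pearson) and ratios exact conditional binomial intervals, all at 95%, and a floor of 3 counts stands in for 0. The sums were tested on simulated data. Ratios needed at least 20 UMIs over both libraries and 1 in each. Members with at least 20 UMIs are named with values and those with fewer by their sums. Of each pathway list at most 4 genes are named, plus Xcl1. Of the atypical receptors only Ccrl2 and Ackr1 are named. The members and lists were chosen with earlier results of these data known. Alternatives changed the mitochondrial limit, the gene minimum, the resolution, the variable genes, the total (58 abundant genes left out, or TMM factors of edgeR 4.0.16), the UMI minimum, the fold and the thinning. Chosen after seeing the data were sums without the richest cell, the deeper macrophages alone, means per cell at equal weight, and stromal cells without 1 cell. In the annotation, 16 members overlap another gene, 2 of them (Ccr9 and Cx3cr1) on the same strand, and Ccl21a, Ccl21b, Ccl27a, Ccl27b and Ccl19 have near-identical copies, so their counts are uncertain. Promoters are from RefSeq (GRCm38.p6), which matched 40 members. The values of 1 member are not reported here, and it is part of the counts over members.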

Additional observations from a re-analysis of the deposited data

Results flagged for a closer look

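Ccl5, Ccr7 and Ccl2 had ratios of IR over control past 2-fold in opposite directions in different classes, and the difference between classes was not tested. For Ccl5 the ratio was 106 in endothelial cells and 0.284 in the regulatory and helper T class. For Ccr7 it was 3.22 in acinar cells, 23.5 in endothelial cells and 2.32 in macrophages, against 0.139 in cDC1-like cells. For Ccl2 it was 15.1 in endothelial cells and 0.3 in macrophages. The endothelial values rest on 2 to 5 IR cells. Under means per cell at equal weight the ratio of Ccr7 in acinar cells was 1.85. In the deeper macrophages alone that of Ccr7 was 1.40 (0.702 to 2.82). The ratios of summed counts given above all stayed past 2-fold without the richest cell of each library. Other entries past 2-fold fell back within it or gave no value without that cell, among them Ccl5 in pDC-like cells, with 1 control UMI and a ratio of 166, and Ccr7 in gamma-delta T cells, at 5.09 on 1 control and 4 IR cells, and in cycling cells, at 0.369.

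Barcodes left out for mitochondrial RNA above 5%, 1260 control and 1858 IR, also held chemokine UMIs. Summed over all cell types, the ratio of IR over control in them was 2.3 for Cxcl12, 4.34 for Ccl22, 18.6 for Ccl17, 2.98 for Ccl2, 4.04 for Ccl8, 2.73 for Ccl3 and 5.05 for Ccl4. For the receptor Ccr1 it was 2.66. Past 2-fold lower were Cxcl13 at 0.0217, Cxcl14 at 0.355 and Ccl21a at 0.413. The ratio of Ccl17 rests on 1 control UMI and 25 IR UMIs. The share of all genes past 2-fold in these barcodes was not counted. Ccl2 and Ccl8 were thus higher in the left-out IR barcodes, while in kept macrophages their ratios were 0.3 and 0.0674. The cell types in these barcodes were not worked out.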

How the results depend on the processing

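No paired analysis was possible because each group is 1 library. Of 1401 values of 160 single ratios under alternatives, 1292 stayed within the counting interval of the reported ratio and 102 moved out of it. The other 7, of entries past 2-fold, turned to the other side of 1, and among entries within 2-fold 95 values did so; the cause was not tested. Cxcl10 in MEC fell to a ratio of 0.0532 with a mitochondrial limit of 10% and to 0.467 when clustered with members. Cxcl10 in stromal cells had a ratio of 0.877 without 1 IR cell, and Cxcl13 there 0.129 at a resolution of 1.5. Without the richest cell of each library the ratio was 1.11 for Ccl4 in pDC-like, 3.11 for Cxcl9 in cDC1-like and 3.05 for Cxcl10 in cycling cells. The 59 entries past 2-fold became 35 with at least 50 UMIs, 95 at a ratio of 1.5 and 35 at a ratio of 3. Of 47 pair and library combinations among members with at least 20 UMIs, 27 kept both their source and their receiver class at a resolution of 1.5. The median share of cells with a UMI of a member, each in its highest class, was 12.9% thinned to 1000 UMIs, 6.77% at 500 and 24.1% without thinning. The ratio over all cells, 1.35, was 1.33 with at least 500 genes per cell and 1.13 without the abundant genes. Cxcl1 in stromal cells ranged from 1.22 to 3.08, Cxcl2 in macrophages from 2.07 to 2.83, Ccl4 in CD8 T cells from 9.55 to 12.8 and Ccl8 in macrophages from 0.00473 to 0.145.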
